A study of Cavia porcellus with 34 samples.

Results

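Corticotropin-releasing hormone (CRH), thyrotropin-releasing hormone (TRH) and somatostatin (SST) are the 3 genes described here, out of 12592 genes that have a row in at least 1 of the deposited tables. They were taken by gene symbol, and all 3 were present in the F1, F2 and F3 tables, which hold 12114, 12207 and 12068 genes. RNA was sequenced from the hypothalamic paraventricular nucleus (PVN) of paternal-line females, taken at postnatal day (PND) 40. Pregnant F0 guinea pigs (Dunkin-Hartley) were given 3 courses of the synthetic glucocorticoid betamethasone (sGC, 1 mg/kg) or saline (Veh). F1 animals were exposed in utero, whereas F2 and F3 animals descended from F1 and F2 males that were mated with naive females and were not injected themselves. F1 and F2 each held 5 Veh and 5 sGC animals, and F3 held 6 of each. In F3, 2 sGC animals (SGM21-batch2 and SGM22-batch2) came from a second sequencing batch. By the labels, Veh animals SGM5 and SGM9 were sequenced again in that batch, but these 2 repeat libraries have no column in the table, where the second batch is represented by sGC animals alone. The PVN was collected as a punch of the anteromedial hypothalamus, which holds the whole nucleus and may hold neighbouring regions too.

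CRH, TRH and SST are precursors of peptides that neurons of the periventricular hypothalamus release into the portal blood. CRH is made in parvocellular PVN neurons and drives pituitary ACTH, and with it adrenal cortisol. TRH neurons of the PVN drive thyrotropin and prolactin, and somatostatin from the periventricular nucleus restrains growth hormone. All 3 are also made in other neurons: somatostatin in many interneurons and TRH in further hypothalamic nuclei. Glucocorticoids are known to restrain CRH in the PVN, and thyroid hormone to restrain TRH there.

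The values are counts per gene that the authors normalized by residuals (RUVSeq, a method that removes unwanted variation) and rounded, and they are called normalized counts here. Their sum per animal was 15.6 to 21.9 M (mega) in F1, 15.7 to 19.4 M in F2 and 18.7 to 19.0 M in F3. Each generation was normalized apart, so levels were compared between treatments within a generation only. Levels were not compared between genes as amounts of transcript, because no transcript length of the authors' build was used. Where a gene is said to hold most of a sum, this refers to normalized counts only. In a punch, fewer cells of a type and less RNA per cell cannot be told apart. The 4 transcription factors listed as PVN markers (SIM1, OTP, POU3F2 and ARNT2) were detected in all animals. Their summed level was 11797 to 18054 normalized counts over the 32 animals. ARNT2 held the largest part of this sum, with a mean of 8869 in F1 Veh against 1337 to 2466 for the others. Arginine vasopressin (AVP), a peptide of the magnocellular and parvocellular PVN, was detected in every animal, between 6289 and 110112.

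In F1, CRH and TRH were lower in most of the directly exposed animals. CRH was 320, 314, 298, 424 and 214 normalized counts in the Veh animals and 37, 195, 208, 286 and 106 in the sGC animals. Of the 5 sGC animals, 4 lay below every Veh animal. The exception was SGM16 at 286, and the groups overlapped. The mean was 314 ± 74.8 (SD, n = 5) in Veh and 166.4 ± 96.5 (SD, n = 5) in sGC. Fitted with limma, the log2 fold change (sGC minus Veh, on the log2(value + 1) scale) was -1.17, standard error 0.35. It did not pass the threshold of 0.05 over all genes tested (limma, adjusted p = 0.116; exact permutation test of this gene alone, two-sided, p = 0.0159). The SD was 1.15 log2 units in sGC and 0.35 in Veh, a difference in spread that was not tested.

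TRH in F1 was 3043, 4032, 3067, 2823 and 2673 normalized counts in Veh and 949, 2160, 1580, 3581 and 938 in sGC. Again 4 of 5 sGC animals lay below every Veh animal, and SGM16, at 3581, lay within the Veh range. The means were 3128 ± 531 (SD, n = 5) and 1842 ± 1096 (SD, n = 5). The log2 fold change was -0.94, standard error 0.25 (limma, adjusted p = 0.0802; exact permutation test, p = 0.0476). TRH passed the threshold once the animals were scaled to a common level, for example under median-of-ratios size factors (limma, adjusted p = 0.0398). It also passed without SGM16 (log2 fold change -1.23; limma, adjusted p = 0.00134), SGM12 (limma, adjusted p = 0.0486) or SGM8 (limma, adjusted p = 0.0459). Without SGM4 or SGM20 it was smaller, -0.75 in both cases, and did not pass (limma, adjusted p = 0.0935 and 0.114). CRH passed without SGM16 (log2 fold change -1.44; limma, adjusted p = 0.0164) or SGM12 (limma, adjusted p = 0.0336), and did not pass with the size factors (limma, adjusted p = 0.0881). Without SGM4, whose CRH was 37, the CRH log2 fold change was -0.71 (limma, adjusted p = 0.114).

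SST in F1 was 10845, 8310, 5774, 3386 and 3128 normalized counts in Veh and 1976, 2357, 6008, 10447 and 2104 in sGC. The values of SGM4, SGM8 and SGM20 lay below every Veh animal, and those of SGM12 and SGM16 lay inside the Veh range. The means were 6289 ± 3299 (SD, n = 5) in Veh and 4578 ± 3685 (SD, n = 5) in sGC. The difference was -0.63 on the log2 scale, standard error 0.37 (limma, adjusted p = 0.485; exact permutation test, p = 0.302), and its 95% confidence interval ran from -1.39 to 0.13. SGM16 was the highest sGC animal for all 3 genes.

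For the 3 genes in F1, 0 passed the adjusted threshold, as did 0.657% of the 11874 genes tested. CRH and TRH had an unadjusted p-value under 0.05, as did 13.6% of all genes. Of the 78 genes called in F1, 72 were higher and 6 lower in sGC. With the size factors 2058 genes were called (17.3%), 1006 higher and 1052 lower. Without SGM16 108 of the 11874 genes were called (0.91%), without SGM12 150 and without SGM8 57.

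**Figure D1:**
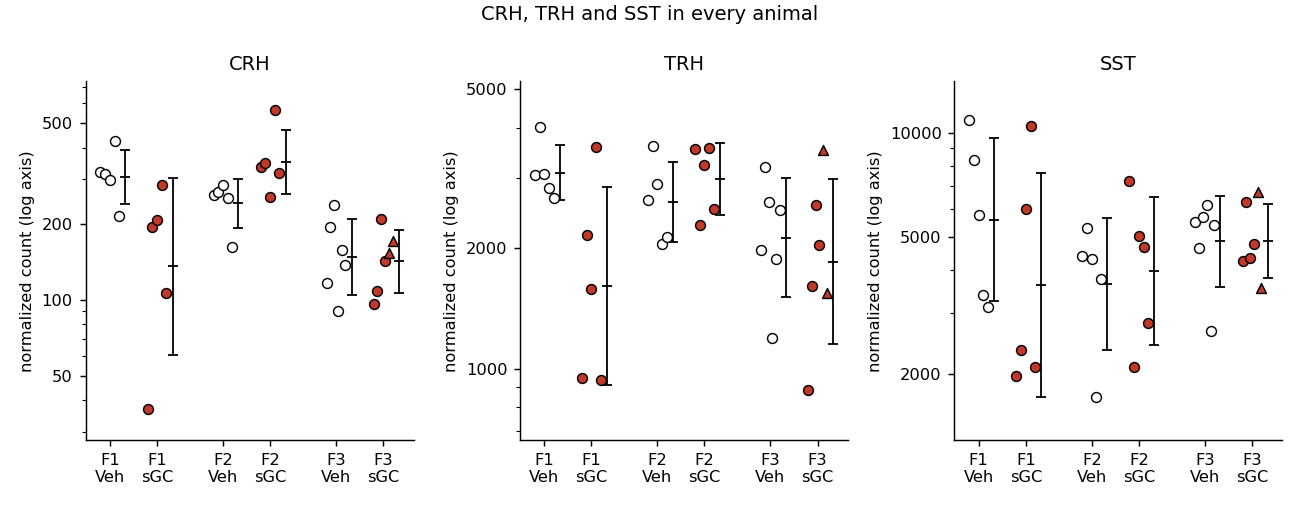
Normalized counts of CRH, TRH and SST on a log axis, 1 point per animal, in Veh (open) and sGC (red) animals of each generation. Triangles are the 2 F3 animals of the second batch, and the bars give the mean of log2(value + 1) and its SD. In F1, 4 of 5 sGC animals lie below every Veh animal for CRH and TRH, and in F2, 4 of 5 lie above every Veh animal for CRH.

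In F2, CRH was higher in the descendants of sGC animals, in the opposite direction to F1. The Veh animals had 261, 267, 285, 253 and 162 normalized counts, and the sGC animals had 335, 347, 256, 566 and 319. Of the 5 sGC animals, 4 lay above every Veh animal, and SGM30 lay among them. The mean was 245.6 ± 48.2 (SD, n = 5) in Veh and 364.6 ± 118 (SD, n = 5) in sGC. This difference, 0.54 on the log2 scale with standard error 0.20, did not pass (limma, adjusted p = 0.328; exact permutation test, p = 0.0317).

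For TRH and SST in F2 no difference larger than the spread between animals was detected. TRH was 2649, 3600, 2896, 2046 and 2140 normalized counts in Veh and 3541, 2290, 3241, 3572 and 2502 in sGC. Every sGC value lay inside the Veh range. The fitted difference was 0.19 on the log2 scale with a 95% confidence interval from -0.16 to 0.54 (limma, adjusted p = 0.654). SST was 4398, 5285, 4317, 1715 and 3767 in Veh and 7257, 2096, 5021, 4667 and 2808 in sGC. One sGC animal, SGM21, lay above the Veh range. Its fitted difference was 0.13 on the log2 scale with an interval from -0.60 to 0.85 (limma, adjusted p = 0.893). Of the 3 genes in F2, 0 passed the adjusted threshold, and 0% of the 11965 genes tested did. Only CRH had an unadjusted p-value under 0.05, as did 11.7% of all genes, 1395 in number. With quantile normalization 42 genes passed, and CRH, TRH and SST were not among them.

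In F3 no difference was detected for CRH, TRH or SST. CRH ranged from 90 to 237 normalized counts in Veh (median 147) and from 96 to 210 in sGC (median 148.5). TRH ranged from 1190 to 3196 in Veh (median 2243) and from 882 to 3523 in sGC (median 1824). SST ranged from 2674 to 6153 in Veh (median 5459) and from 3540 to 6749 in sGC (median 4541). The groups overlapped for each gene. On the log2 scale the difference was -0.06 for CRH (95% confidence interval -0.54 to 0.43), -0.20 for TRH (-0.82 to 0.42) and 0.00 for SST (-0.41 to 0.42). The limma adjusted p-values were 0.948, 0.825 and 0.995. Of the 3 genes, 0 passed and 0 had an unadjusted p-value under 0.05, whereas 0.0506% and 13.1% of the 11866 genes tested did. The first batch alone, with 6 Veh and 4 sGC animals, gave -0.15 for CRH, -0.37 for TRH and 0.00 for SST. The table has columns of the second batch for sGC animals only, so no value within it was computed.

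The direction of CRH was compared between F1 and F2 directly. The log2 fold change in F1 minus that in F2 was -1.71 for CRH, -1.13 for TRH and -0.76 for SST. In exact permutation tests of each gene alone, two-sided, with labels permuted within each generation, these gave p = 0.00139, 0.022 and 0.302. Such permutation tests against no treatment difference in either generation, and not against equal differences in both. Over the 9 comparisons of this kind (3 genes, 3 pairs of generations) the Benjamini-Hochberg values were 0.0125 for CRH, 0.0992 for TRH and 0.368 for SST in these permutation tests. Fitted over all 11612 genes tested in both tables, the CRH difference did not pass (limma, adjusted p = 0.0929, standard error 0.50), nor did that of TRH (limma, adjusted p = 0.121). In that fit 1.37% of genes passed. The CRH difference passed among these 9 comparisons and not over all genes. It did not pass among the 9 without F1 Veh SGM3, SGM7, SGM11 or SGM15 (exact permutation tests, adjusted p from 0.0524 to 0.0652). CRH in F1 minus F3 was -1.11 (exact permutation test, p = 0.097; adjusted 0.271), and in F2 minus F3 it was 0.60 (exact permutation test, p = 0.121; adjusted 0.271). For the 3 genes 0 differences with F3 passed in the limma fits, where 3.63% of genes passed for F1 minus F3 and 1.52% for F2 minus F3.

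Whether the 3 genes moved unequally was read from their log2 ratios within an animal, which do not depend on how animals are scaled beyond the pseudocount. None of the 9 group differences passed (exact permutation tests, smallest adjusted p = 0.763). In F1 the CRH to TRH ratio differed by -0.23 (exact permutation test, p = 0.587), so no unequal change of CRH and TRH was detected. The CRH to SST ratio in F1 differed by -0.54 (exact permutation test, p = 0.333).

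PVN marker levels differed widely between the F1 punches. The mean log2 level of SIM1, OTP, POU3F2 and ARNT2, named the PVN lineage mean here, was 11.7, 11.8, 11.5, 11.3 and 11.1 in the F1 Veh animals. In the sGC animals it was 10.7 in SGM4, 10.99 in SGM8, 11.6 in SGM12, 11.7 in SGM16 and 10.9 in SGM20. SIM1, OTP and POU3F2 had F1 log2 fold changes of -0.34, -0.64 and -0.35, and ARNT2 had 0.17, with 0 past the adjusted threshold. SGM4, SGM8 and SGM20 were below every Veh animal in PVN lineage mean, and SGM12 and SGM16 were within the Veh range. The same 3 animals had the lowest AVP, 10482, 14891 and 23305 normalized counts, against 77938 in SGM12, 102436 in SGM16 and 48718 to 110112 in Veh. Markers of neighbouring regions (ventromedial, arcuate, lateral, suprachiasmatic and thalamic) were also unequal. Of 12 listed, 10 were in the F1 table (not AGRP and NPY). Their log2 fold changes were above 0 for 7 and below 0 for 3, and 0 passed the adjusted threshold. Their sum was 2247 to 23858 normalized counts in sGC and 5914 to 12793 in Veh. The high sums came from 1 gene, PMCH, the melanin-concentrating hormone precursor of the lateral hypothalamus. PMCH was 17503, 20684 and 12285 in SGM4, SGM8 and SGM20, against 303 in SGM12, 841 in SGM16 and 350 to 10365 in Veh. Without PMCH the sum was 1944 to 3174 in sGC and 2120 to 7071 in Veh. The thalamic markers TCF7L2 and GBX2 had lower means in sGC, with log2 fold changes of -1.41 and -2.39 (limma, adjusted p = 0.0845 and 0.176). Veh SGM15 held much of their Veh level: its sum without PMCH was 7071, and 903 without these 2 markers as well. LEF1, also on the list, was at 638.2 in Veh and 674 in sGC (log2 fold change 0.08). NR5A1 of the ventromedial nucleus had a mean of 44.8 in Veh and 143.4 in sGC (limma, adjusted p = 0.095).

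With the PVN lineage mean as a covariate, the F1 log2 fold change was -0.68 for CRH (limma, adjusted p = 0.21) and -0.59 for TRH (limma, adjusted p = 0.122). That of SST turned from -0.63 to 0.09 (limma, adjusted p = 0.786). In F2 the sGC animals had the higher PVN lineage mean, 11.3 to 11.5 against 11.1 to 11.4 in Veh, and the groups overlapped. The F2 log2 fold changes were 0.20 for SIM1, 0.32 for OTP, 0.28 for POU3F2 and -0.004 for ARNT2. There the covariate took the CRH log2 fold change from 0.54 to 0.21 (limma, adjusted p = 0.804). An effect of sGC on these factors and a difference in the tissue sampled cannot be told apart. Markers of other cell types were unequal as well. In F2, 6 of 6 oligodendrocyte genes had a log2 fold change below 0, with a summed level of 65936 to 106445 normalized counts against 125164 to 225722 in Veh and 0 past the adjusted threshold. In F1 the same sum was 34088 to 96289 in sGC and 34706 to 43771 in Veh, highest in SGM8 and SGM4. For endothelial genes in F1, 6 of 6 had a log2 fold change above 0, with sums of 6802 to 12768 against 5667 to 8621 in Veh and 0 past the adjusted threshold. In F2 the endothelial genes were below 0 in 6 of 6 (median -0.36; sums 5937 to 7461 in sGC and 6545 to 10888 in Veh) and the ependymal genes above 0 in 5 of 5 (median 1.00; sums 5513 to 8655 and 5145 to 6728), again with 0 past the adjusted threshold. The part of these cell types in the CRH, TRH and SST values was not tested.

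**Figure D2:**
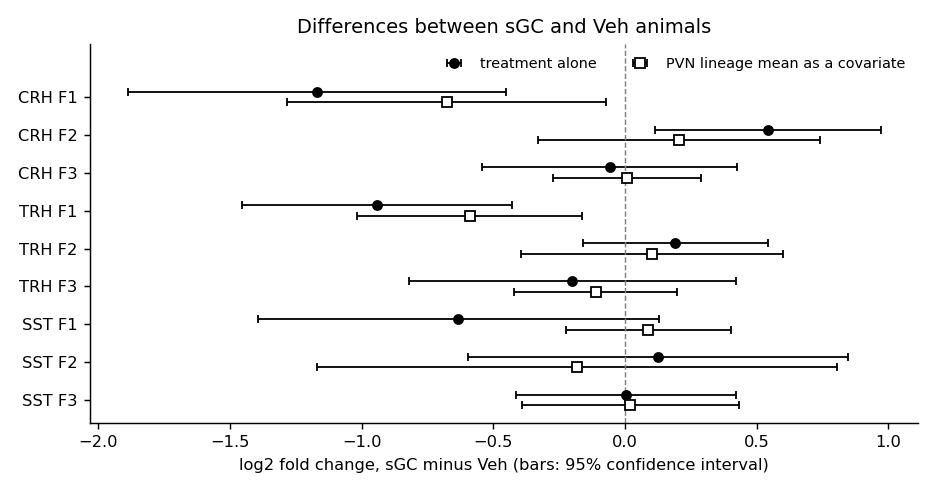
Log2 fold change (sGC minus Veh) of CRH, TRH and SST in each generation from limma, with 95% confidence intervals, for treatment alone (filled circles) and with the PVN lineage mean as a covariate (open squares). The F1 values move from -1.17 to -0.68 for CRH, from -0.94 to -0.59 for TRH and from -0.63 to 0.09 for SST.

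Across animals of one generation, with group means of log2(value + 1) removed, different pairs of the 3 genes varied together past the threshold in F2 and F3, and none did in F1. In F1 all pairs had positive Pearson coefficients over 10 animals, 0.77 for CRH and TRH, 0.59 for CRH and SST and 0.71 for TRH and SST. None passed after adjustment over the 9 pairs (exact permutation within groups, smallest adjusted p = 0.155). The Spearman coefficients were 0.70, 0.78 and 0.75 (exact permutation, adjusted p = 0.169, 0.0602 and 0.0916). Without the 2 animals farthest from the median, the Pearson coefficients were 0.64, 0.37 and 0.40. Here and below, these 2 animals were picked by the group-centred value of the first-named gene of a pair.

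In F2, TRH and SST varied together across the 10 animals, with a Pearson coefficient of 0.86 (exact permutation, p = 0.00194; adjusted p = 0.0175) and a Spearman coefficient of 0.79 (exact permutation, p = 0.015; adjusted p = 0.0602). The coefficient was 0.76 without the 2 farthest animals (exact permutation, p = 0.0139; adjusted p = 0.125). It did not pass without sGC SGM21, SGM26 or SGM30 (exact permutation, adjusted p from 0.0609 to 0.0641). The animal with the lowest TRH in each F2 group also had the lowest SST, SGM28 in Veh and SGM26 in sGC. CRH did not follow SST in F2 (Pearson 0.05, Spearman 0.09; exact permutation, p = 0.905 and 0.82), and followed TRH with a coefficient of 0.42 (exact permutation, p = 0.261; Spearman 0.50, exact permutation, p = 0.155). The latter turned to -0.12 without the 2 animals farthest in CRH, a removal that also narrows the range of CRH.

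In F3 it was CRH and TRH that moved together, with a Pearson coefficient of 0.73 over 12 animals (exact permutation, p = 0.00911; adjusted p = 0.041) and a Spearman coefficient of 0.71 (exact permutation, p = 0.0159; adjusted p = 0.0602). Without the 2 farthest animals it was 0.68 (exact permutation, p = 0.0549; adjusted p = 0.247), and in the first batch alone it was 0.84 (exact permutation, adjusted p = 0.0242). Leaving out any of Veh SGM13, SGM14, SGM17 or SGM5 or sGC SGM10, SGM18, SGM2 or SGM6 ended this call, with coefficients from 0.63 to 0.75 (exact permutation, adjusted p from 0.0565 to 0.155). The animals with the lowest CRH, SGM5 in Veh and SGM10 in sGC, had the lowest TRH of their groups. SST had a coefficient of -0.25 with CRH (Spearman -0.22; exact permutation, p = 0.466 and 0.497) and 0.22 with TRH (Spearman 0.26; exact permutation, p = 0.502 and 0.455). Whether the coefficients differ between generations was not tested.

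The same animals were set beside their PVN lineage mean and their AVP level, 18 relations in all. In F1, SST followed the PVN lineage mean most closely, with a Pearson coefficient of 0.96 and a Spearman coefficient of 0.95 (exact permutation, p = 0.000347 and 0.000486; adjusted p = 0.00313 and 0.00438). It was 0.96 without the 2 farthest animals (exact permutation, adjusted p = 0.0286). In F2 and F3 the coefficient of SST with the PVN lineage mean was 0.27 and 0.24 (Spearman 0.12 and 0.27; exact permutation, adjusted p = 0.571 for both Pearson values). SST also followed AVP in F1, with 0.86 (Spearman 0.87; exact permutation, adjusted p = 0.0108 and 0.0306), and 0.82 without the 2 farthest animals (exact permutation, adjusted p = 0.101). In F2 the coefficient of SST and AVP was -0.27 (Spearman -0.31; exact permutation, adjusted p = 0.571 and 0.509), and in F3 it was 0.47 (Spearman 0.29; exact permutation, adjusted p = 0.277 and 0.49). CRH and AVP had 0.77, 0.60 and 0.54 in F1, F2 and F3 (Spearman 0.70, 0.43 and 0.54; exact permutation, smallest adjusted p = 0.127). TRH and AVP had 0.63 and 0.15 in F1 and F2 (Spearman 0.49 and 0.16; exact permutation, smallest adjusted p = 0.306). In F3 the Spearman coefficient of TRH and AVP, 0.67, passed and the Pearson coefficient, 0.52, did not (exact permutation, adjusted p = 0.0488 and 0.127).

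In F3 the genes that followed the PVN lineage mean were TRH, with 0.87 (Spearman 0.90; exact permutation, adjusted p = 0.00226 and 0.00319), and CRH, with 0.84 (Spearman 0.83; exact permutation, adjusted p = 0.0108 and 0.0197). Without the 2 farthest animals these were 0.86 (exact permutation, adjusted p = 0.0286) and 0.75 (exact permutation, adjusted p = 0.101). In the first batch alone they were 0.85 and 0.90 (exact permutation, adjusted p = 0.00906 for both). In F1 the coefficients of CRH and TRH with the PVN lineage mean were each 0.73 (Spearman 0.79 and 0.70; exact permutation, adjusted p = 0.127 for both Pearson values). In F2 they were 0.53 and 0.17 (Spearman 0.41 and 0.08; exact permutation, adjusted p = 0.225 and 0.686). The PVN lineage mean itself spread less in F2, with a SD of 0.12 in both groups, than in F1, with 0.29 in Veh and 0.43 in sGC.

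**Figure D3:**
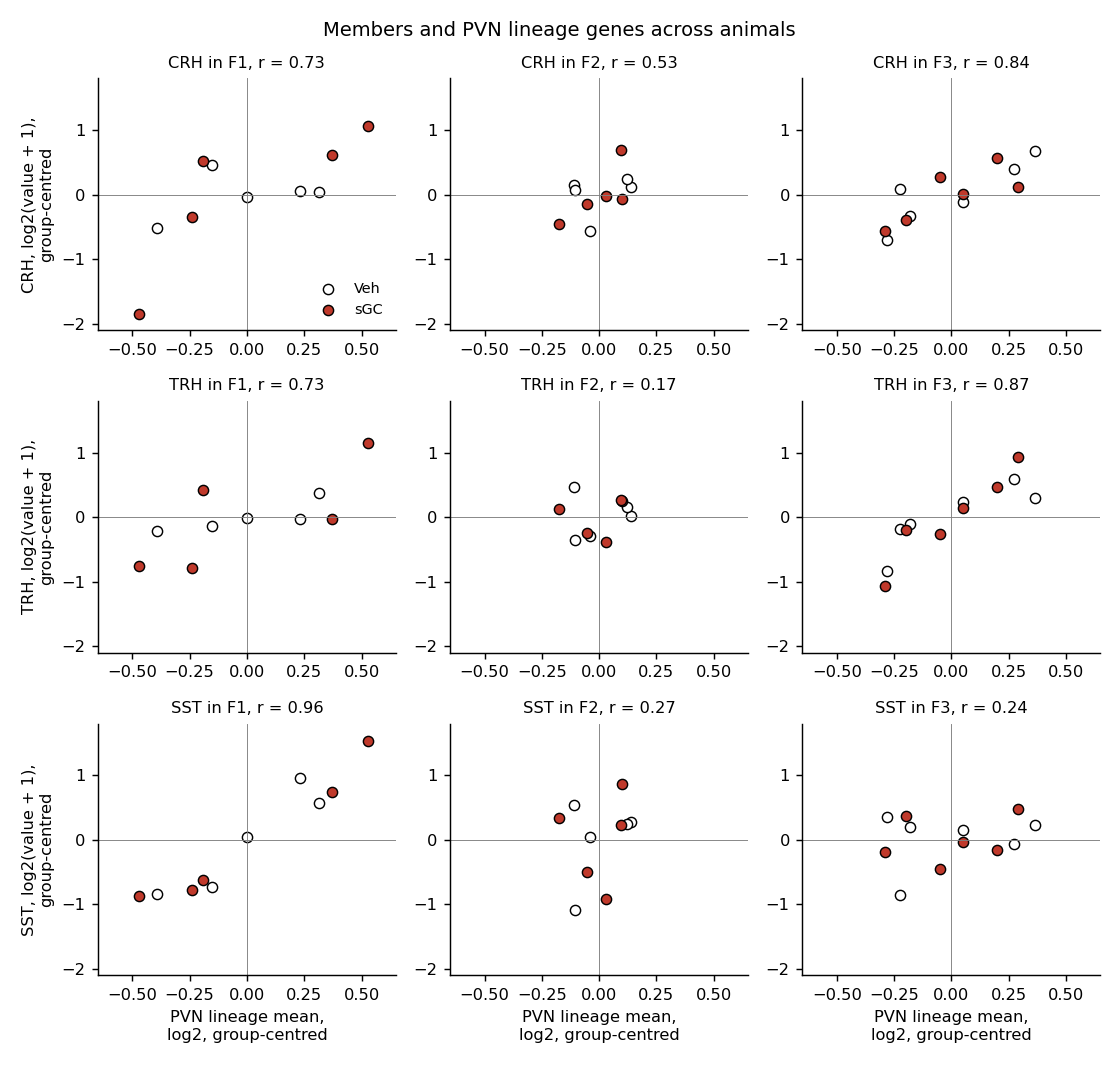
Group-centred log2(value + 1) of CRH, TRH and SST (rows) against the group-centred PVN lineage mean (log2), 1 point per animal, Veh open and sGC red, in F1, F2 and F3 (columns), with the Pearson coefficient. SST lies close to a line in F1 (0.96) and not in F2 (0.27) or F3 (0.24), and CRH and TRH do so in F3 (0.84 and 0.87).

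The genes whose levels were most like each of the 3 across animals were ranked by the mean Pearson coefficient over the generations, among 11426 genes tested in all of them. For CRH, SIM1 came first of all genes, with 0.76 in F1, 0.72 in F2 and 0.92 in F3. SIM1 is the transcription factor that PVN neurons need to develop. It was followed by CACNG3, a regulator of AMPA receptors (mean 0.80), AMBN, a tooth enamel protein (0.79), GHSR, the ghrelin receptor (0.78), and EPHB6, an ephrin receptor (0.75). OTP, a further PVN factor, ranked 6 with a mean of 0.74, whereas POU3F2 ranked 29 (0.65) and ARNT2 ranked 578 (0.24). For TRH the first was CACNG3 as well (0.69, 0.70 and 0.87), then GLI1, a transcription factor of hedgehog signalling (mean 0.72), GDF10, a growth factor of the TGF-beta family (0.71), IQCJ-SCHIP1 (0.71) and SLC16A3, a lactate transporter (0.70).

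For SST the first genes were others. TXLNG led, with 0.74, 0.80 and 0.82 in F1, F2 and F3, followed by HES5, a Notch target (mean 0.76), MAB21L2 (0.75), PAFAH1B3 (0.73) and GALR1, a galanin receptor (0.72). SIM1 ranked 3753 for SST, with 0.96 in F1, -0.18 in F2 and 0.01 in F3. Of all genes, 29 were more like CRH than TRH was, and 1358 were more like CRH than SST was. None of the 5 genes named for each member, nor OTP, had an adjusted p-value under 0.05 between sGC and Veh in any generation (limma). The genes were picked for high coefficients among all of these, so the coefficients are a description.

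The receptors, further ligands and degrading enzymes of the 3 peptides were described from a list of 17 genes. Of the CRH family, CRHR2, the second CRH receptor, and CRHBP, the protein that binds CRH, were tested in all 3 generations, and UCN2 (urocortin 2) in F2 and F3. UCN, UCN3 and CRHR1 had no row in the tables used here. In F1, CRHR2 had 825.6 ± 117 (SD, n = 5) normalized counts for Veh and 1080 ± 218 (SD, n = 5) for sGC (log2 fold change 0.38; limma, adjusted p = 0.231), and its log2 fold change was within 0.10 of 0 in F2 and F3. CRHBP differed by 0.45 (F1), -0.03 (F2) and 0.17 (F3) on the log2 scale, with standard errors from 0.29 to 0.43. UCN2 in F3 differed by 0.06 on the log2 scale with very little spread, from 2139 to 2281 in Veh and from 2258 to 2366 in sGC (limma, adjusted p = 0.28). For this family 0 of 2, 0 of 3 and 0 of 3 genes passed in F1, F2 and F3.

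In the TRH system, TRHR, the TRH receptor, rose in F1 sGC animals. TRHR was 406, 497, 346, 250 and 317 normalized counts in Veh and 662, 825, 513, 457 and 786 in sGC. Of the sGC animals, 4 lay above every Veh animal and SGM16 lay within the Veh range. The mean was 363.2 ± 93.5 (SD, n = 5) in Veh against 648.6 ± 162 (SD, n = 5), and the log2 fold change was 0.84, standard error 0.18 (limma, adjusted p = 0.0314). TRHR was the only gene of the 9 cognate genes tested in F1 that passed. It did not pass without Veh SGM11, SGM15 or SGM19 or sGC SGM8 or SGM20, with adjusted p-values of limma from 0.0522 to 0.12. With the PVN lineage mean as a covariate the log2 fold change was 0.78 (limma, adjusted p = 0.0429). In that F1 fit 248 of 11874 genes passed, against 78 with treatment alone. The 3 sGC animals with the highest TRHR, SGM8, SGM20 and SGM4, were those with the highest PMCH, and the part of neighbouring regions in TRHR was not tested.

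In F2 the TRHR log2 fold change was 0.30, from Veh animals at 286.8 ± 57.5 (SD, n = 5) and sGC animals at 361.2 ± 106 (SD, n = 5) (limma, adjusted p = 0.571). In F3 it was -0.50, from 830.2 ± 181 (SD, n = 6) for Veh and 599.8 ± 181 (SD, n = 6) for sGC (limma, adjusted p = 0.272). The lowest F3 value, 360, was that of SGM21-batch2, and in the first batch alone the log2 fold change was -0.32 (limma, adjusted p = 0.573). With the PVN lineage mean as a covariate it was -0.56, which passed (limma, adjusted p = 0.0184). In that F3 fit 109 of 11866 genes passed, against 6 with treatment alone. Between F1 and F3 the TRHR difference was 1.33, standard error 0.28 (limma, adjusted p = 0.0085). It passed over all 11539 genes tested in both tables, as did 3.63% of them. That fit held the 2 F3 sGC animals of the second batch and was not run on the first batch alone. The 2 tables were normalized apart, with a median residual SD of 0.21 in F1 and 0.08 in F3. Between F1 and F2 the TRHR difference was 0.53 (limma, adjusted p = 0.379).

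TRHDE, the membrane enzyme that degrades TRH, differed by 0.31 (F1), -0.05 (F2) and 0.17 (F3) on the log2 scale (limma, adjusted p = 0.377, 0.905 and 0.3). PGPEP1, a cytosolic peptidase that removes pyroglutamate, and QPCT, the cyclase that forms it, lay within 0.08 of 0 in all 3 generations. The SST receptors SSTR1, SSTR3 and SSTR5 were tested in every generation, and 0 of 3 passed in each. The widest differences were -0.44 for SSTR3 in F2 (limma, adjusted p = 0.527), 0.27 for SSTR1 in F1 (limma, adjusted p = 0.535) and -0.27 for SSTR5 in F3 (limma, adjusted p = 0.377). TRHR2, CORT, SSTR2 and SSTR4 had no row. The median log2 fold change in F1 was 0.41, 0.13 and 0.24 for the CRH, TRH and SST systems, beside 0.07 for all genes. These medians rest on 2, 4 and 3 genes. In F2 the median was -0.03 for each system, beside -0.08 for all genes. In F3 it was 0.06, -0.01 and -0.11, beside -0.002 for all genes.

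**Figure D4:**
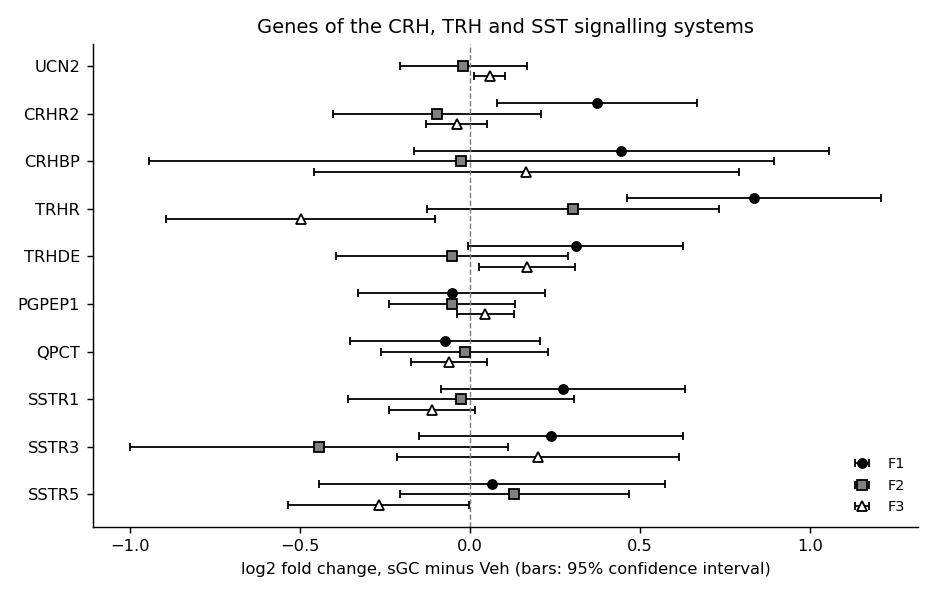
Log2 fold change (sGC minus Veh) with 95% confidence intervals (limma) of the detected ligands, receptors and enzymes of the CRH, TRH and SST systems in F1 (circles), F2 (squares) and F3 (triangles). TRHR lies at 0.84 in F1, where it passed, and at -0.50 in F3, where it did not.

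Of the other hypothalamic releasing and inhibiting factors and magnocellular peptides, 0 of 5 passed in F1, 0 of 5 in F2 and 0 of 4 in F3. Oxytocin (OXT) differed most in F1, by -1.54 on the log2 scale, from Veh animals at 70791 ± 20378 (SD, n = 5) and sGC animals at 33704 ± 29531 (SD, n = 5) (limma, adjusted p = 0.0884). Its sGC values were 7648 in SGM4, 11246 in SGM8 and 18465 in SGM20, and 61089 in SGM12 and 70074 in SGM16, the same order of animals as for AVP. Tyrosine hydroxylase (TH), the enzyme of dopamine synthesis, differed most in F2, by -0.80 on the log2 scale (limma, adjusted p = 0.5), and in F3, with 0.64 (limma, adjusted p = 0.298). KISS1 had no row.

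Of the enzymes and granule proteins that mature neuropeptides, 0 of 10 passed in F1, and 0 of 9 in F2 and F3. The widest difference was 0.22 in F1 for CHGA (chromogranin A; limma, adjusted p = 0.48). In F2 it was 0.23 for PCSK1, the prohormone convertase that cleaves the CRH and TRH precursors (limma, adjusted p = 0.569), and in F3 it was -0.32 for PCSK1, with a 95% confidence interval from -0.54 to -0.10 (limma, adjusted p = 0.215). Glucocorticoid, cAMP and thyroid hormone inputs to the 3 genes also did not pass, 0 of 12 in each generation. Among those the widest differences were 0.46 for FKBP5, a glucocorticoid-induced chaperone, in F1 (limma, adjusted p = 0.452), and -0.36 and -0.42 for NR4A1, an immediate early gene, in F2 and F3 (limma, adjusted p = 0.554 and 0.574).

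CRH, TRH and SST were among the most variable genes between animals of one group. Their residual SD on the log2 scale was 0.85, 0.38 and 0.46 for CRH, 0.60, 0.32 and 0.60 for TRH and 0.94, 0.67 and 0.40 for SST, each in the order of generations. Over all genes tested the median was 0.21, 0.16 and 0.08. Their percentile among all genes ran from 84.4 (TRH in F2) to 99.4 (SST in F1). Within a group, SST spanned 5.29-fold in F1 sGC, TRH 3.99-fold in F3 sGC and CRH 7.73-fold in F1 sGC.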

How the data were processed

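RNA from PVN punches of 32 animals was analysed. According to the methods, reads were mapped to cavPor3 with Tuxedo tools, genes were counted in R, outliers were dropped by Cook's distance, ComBat was applied to the F3 batches, and RUVSeq residuals were used to normalize. The authors thus deposited a score per gene and animal, a normalized count rounded to a whole number, and no count test was run on it. In each table, 6 columns carry the authors' own test of sGC against Veh and were left aside. The labels list 2 repeat libraries of F3 Veh animals in the second batch, which were not analysed here. The methods state that sample sizes are independent litters.

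Within each generation, limma 3.58.1 (R 4.3.3, mean-variance trend) was applied to unscaled log2(value + 1) of genes averaging 10 or more, and Benjamini-Hochberg p-values under 0.05 were called. Exact permutation tests of single values used all label assignments, and those of correlations all reorderings within groups (Python 3.11.15, scipy 1.17.1). With 5 against 5 animals the smallest two-sided p is 0.00794. Both were tested on simulated data. No animal's values were identical to another's. Singular values showed 1, 1 and 2 directions removed from the F1, F2 and F3 tables. Apart from the fits with these directions as covariates, no test allowed for them, and p-values may be too small for that reason. The deposited values are not reads, so no counting interval is given, and the number of animals sets the precision.

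Members and gene lists were chosen with earlier results of these data known. Named are CRH, TRH and SST, every detected cognate gene, of the other lists any gene called and the widest difference per generation (mean of at least 50), and the 5 genes most like each member. AVP and OTP, and the marker genes given with values, were named after their values were seen. The split of the neighbouring-region sum, the joint limma fit of 2 tables and the first-batch values beside the PVN lineage mean were also added after seeing the data. Alternatives were pseudocounts of 0.5 and 10, other scalings and filters, covariates, the F3 batch and leaving out each animal. The RefSeq table (mCavPor4.1) held 3 of 3 symbols but is of another build, so no coordinates are given.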

Additional observations from a re-analysis of the deposited data

Results flagged for a closer look

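In F2 Veh, CRH of SGM29 was 7.35 on the log2 scale, apart from the other 4 animals at 7.99 to 8.16. In the same group the log2 ratio of TRH to SST of SGM28 was 0.25, apart from -0.82 to -0.55, since its SST was the lowest of the group. In F3 Veh, SST of SGM9 was 11.4, apart from 12.2 to 12.6. These 3 animals each lay farther from their group than Dixon's 95% limit. In all 36 groups of values were examined, and chance alone gives about 1.8.

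The log2 fold change of CRH in F1 minus that in F2 was -1.71, past the threshold as a single comparison (exact permutation test, adjusted p = 0.0125 over 9) and not over all genes (limma, adjusted p = 0.0929). Without SGM29 of F2 Veh the F2 log2 fold change of CRH was 0.40, and without SGM9 of F3 Veh that of SST in F3 was -0.17.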

How the results depend on the processing

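Scaling the animals (size factors, sample total, quantiles) raised the genes called in F1 from 78 to 2058, 1943 and 2084. TRH in F1 then passed, at -1.003, -0.998 and -1.02 (limma), and TRH in F1 minus F2 at -1.27, -1.27 and -1.29. Quantile normalization called 42 genes in F2 and turned SST in F3 to -0.0035. A minimum mean of 50 called 17 genes in F2. In F3, 1 gene was called with the removed directions as covariates, 2 in the first batch alone and 3 with batch as a covariate, against 6. With the PVN lineage mean, SST was 0.0895 in F1 and -0.18 in F2, and CRH 0.0082 in F3. The limma fit of both tables kept CRH in F1 minus F2 at -1.71 without passing.

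With size factors, TRH and SST in F2 (0.81) and CRH and TRH in F3 (0.73) no longer passed, and CRH with the PVN lineage mean in F2 did (0.87). In the F3 first batch TRH and SST gave -0.025. Without the 2 farthest animals the coefficients were -0.12 (CRH and TRH, F2), -0.096 (CRH and SST, F2), 0.76 (TRH and SST, F2), 0.68 (CRH and TRH, F3) and -0.083 (TRH and SST, F3). For AVP they were 0.82 (SST, F1), -0.45 (CRH, F2) and -0.23 (SST, F3), and for the PVN lineage mean 0.75 (CRH, F3) and -0.0301 (SST, F3). Uncentred, the F1 pairs passed: 0.86 (CRH and TRH), 0.66 (CRH and SST) and 0.73 (TRH and SST). These coefficients also hold the difference between the group means, so they do not show co-variation within groups.

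Leaving out each animal gave 15 (Veh SGM15) to 473 (Veh SGM7) genes called in F1, 0 to 114 (Veh SGM28) in F2 and 1 to 15 (sGC SGM18) in F3. The log2 fold changes ranged in F1 from -1.44 to -0.71 (without sGC SGM4) for CRH, -1.23 to -0.75 for TRH and -1.02 (sGC SGM16) to -0.39 (Veh SGM3) for SST, in F2 from 0.37 to 0.66 for CRH, 0.104 (Veh SGM28) to 0.31 (Veh SGM23) for TRH and -0.15 (Veh SGM28) to 0.36 (sGC SGM26) for SST, and in F3 from -0.20 to 0.0782 (CRH), -0.38 to 0.0145 (TRH) and -0.17 to 0.10 (SST). Between F1 and F2 the difference ranged from -1.98 to -1.25 (CRH) and -1.42 to -0.94 (TRH), between F1 and F3 from -1.38 to -0.65 (sGC SGM4; CRH), and between F2 and F3 from -0.15 to 0.35 (SST). Ratio differences ranged from -0.39 to 0.041 (CRH to TRH, F1), -0.0702 to 0.25 (TRH to SST, F2) and -0.27 to 0.13 (CRH to SST, F3). Coefficients ranged from 0.45 to 0.84 (TRH and SST, F1), 0.81 to 0.93 (TRH and SST, F2), -0.0709 to 0.17 (CRH and SST, F2), 0.63 to 0.81 (CRH and TRH, F3) and -0.0055 to 0.43 (TRH and SST, F3). The cause of these changes was not tested. With 5 or 6 animals per group, small differences in these variable genes were not detectable.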
